A study of Mus musculus with 12 samples.

Results

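Zinc finger protein genes whose symbol is Zfp followed by a number were followed through loss of Prmt5 in mouse neural progenitor cells (NPC) and embryonic fibroblasts (MEF). A gene was a member if its symbol had that form and it stood in at least 1 of the 4 deposited tables, which hold an expression and a splicing comparison for each cell type. This gave 19 genes of the 2718 gene names in the tables. Of these, 15 were listed for a changed mRNA level and 4 for a splicing event, and 0 were listed for both. The tables hold changed genes and events only, so membership itself reports a change and the direction, size and kind of change are what can be described.

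RNA was sequenced from 12 libraries, 3 for each combination of cell type and treatment. Every library came from cells labelled Prmt5 F/FER on a mixed C57BL/6 X 129S1/SvlmJ background, taken at E14.5. NPC were cortical neurospheres treated at day 4 and MEF were passage 1 fibroblasts grown to confluence, and each received 50 nM 4-hydroxytamoxifen (4-OHT) or ethanol for 24 h. 4-OHT activates the recombinase that removes the conditional Prmt5 allele, and PRMT5 is an arginine methyltransferase that acts on Sm proteins of the spliceosome and on histones. Cells with an intact Prmt5 that also received 4-OHT are not among the labelled groups, so effects of 4-OHT and of the loss of Prmt5 cannot be told apart. In the authors' deposited table Prmt5 itself changed by -2.76 (log2) in NPC, where ethanol cells had 33.4 RPKM and 4-OHT cells 4.92, and by -2.48 in MEF. RPKM is a read count scaled to transcript length and to the mapped reads of the library. The labels leave unsaid whether a group's replicates are separate animals or cultures, so the deposited p-values may measure technical spread only.

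Most Zfp genes encode proteins with tandem C2H2 zinc fingers, in which paired cysteines and histidines hold a zinc ion and neighbouring fingers read adjacent bases of DNA. Many carry a KRAB box at the N terminus, which recruits TRIM28 and, through it, the histone methyltransferase SETDB1 and HP1 proteins, and so silences transposable elements and some genes. Mouse Zfp genes often stand in clusters of close relatives, several of them on chromosomes 13 and 17, and their mRNAs are usually scarce. Some members are known for roles in RNA binding, histone mRNA processing or small nuclear RNA transcription.

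In NPC the listed Zfp genes split between both directions. Higher with 4-OHT were 7 genes (Zfp641, Zfp874, Zfp456, Zfp677, Zfp811, Zfp629 and Zfp385a) and lower were 8 (Zfp473, Zfp472, Zfp239, Zfp101, Zfp280b, Zfp808, Zfp773 and Zfp180). That is 46.7% higher, beside 56.6% of the 2416 genes listed in NPC. The median log2 fold change of the 15 was -0.601, and that of all listed genes was 0.659. This contrast was absent once genes whose higher arm lay under 1 RPKM were set aside. Both medians were then -0.601, and the share higher was 45.5% of 11 Zfp genes against 47.3% of 1742 listed genes. No listed change is smaller in size than 0.585, so the sign of these medians only restates which direction held more genes. Changes were modest in both directions, with a median size of 0.72 on the log2 scale against 0.862 for all listed genes, and 4 of the 15 reached a size of 1, against 35.6% of all listed genes. As 9.77% of protein-coding gene names were listed in NPC, the 14 listed among 391 annotated Zfp symbols (3.58%) were a smaller share, though how many of either were tested is unknown. Zfp874, the remaining listed gene, stands under an older name.

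Each arm of the deposited expression tables has 1 RPKM value without a replicate spread, so the standard errors given here were derived from the deposited Cuffdiff p and are approximate. For single genes the test used was the Cuffdiff p, with an upper bound of its Benjamini-Hochberg adjusted value that counts every annotated gene as tested. By that bound 13 of the 15 Zfp genes stayed under 0.05, against 73.7% of all listed genes, and Zfp773 and Zfp677 did not. In these bulk samples, fewer cells of a type and less RNA per cell cannot be told apart.

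**Figure D1:**
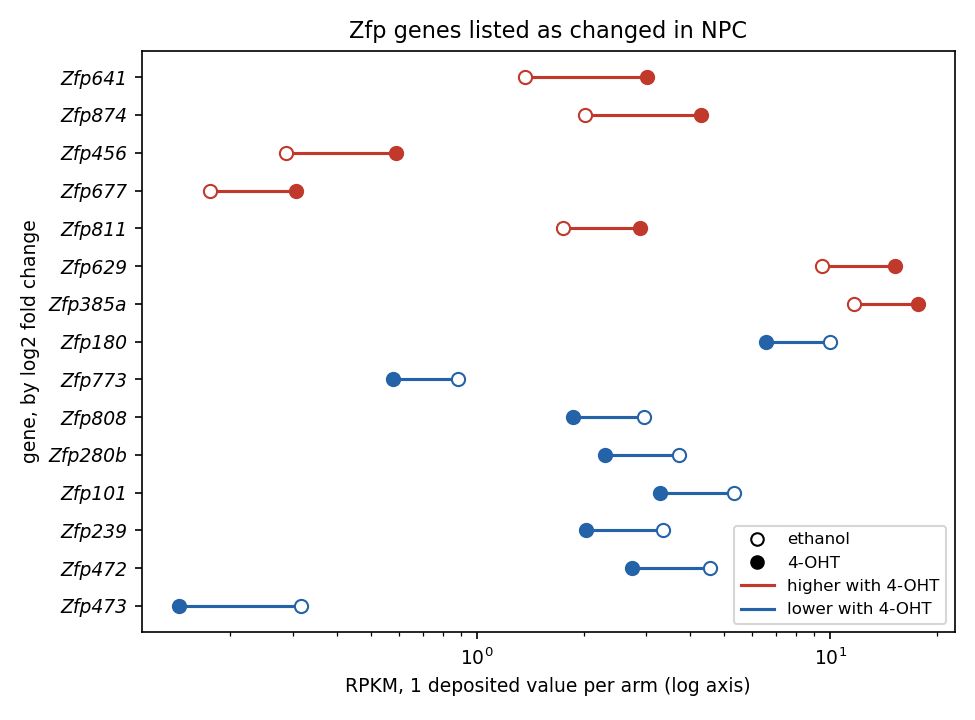
Expression of the 15 Zfp genes listed in NPC, with RPKM on a log axis and 1 point for ethanol and 1 for 4-OHT, as given in the authors' deposited table. Zfp genes higher with 4-OHT number 7 and those lower number 8, and no point exceeds 17.7 RPKM.

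The clearest rises were in Zfp874 and Zfp641. Zfp874, also called Rslcan15, is one of the candidate genes for the regulators of sex-limited liver expression on chromosome 13. In the authors' deposited table it went from 2.02 RPKM with ethanol to 4.29 RPKM with 4-OHT, a log2 fold change of 1.09 (SE 0.185, Cuffdiff p = 3.43e-09, adjusted p at most 4.27e-07). Zfp641 carries KRAB letters and went from 1.37 to 3.02 RPKM by the authors' deposited table, a log2 fold change of 1.14 (SE 0.196, Cuffdiff p = 5.11e-09, adjusted p at most 6.11e-07). These 2 had the lowest p of the Zfp genes and rank 445 and 464 by p among the listed genes of NPC. Both more than doubled, but many listed genes had a lower p. Zfp456, or Rslcan-13, belongs to the same candidate cluster as Zfp874 and rose from 0.288 to 0.587 RPKM by the authors' deposited table (log2 fold change 1.03, Cuffdiff adjusted p at most 0.0122).

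The other genes that were higher changed by less than 1 on the log2 scale. Zfp385a, also named Hzf, is a p53 target gene and had the highest level of the family here, 11.6 RPKM with ethanol and 17.7 with 4-OHT in the authors' deposited table (log2 fold change 0.60, Cuffdiff adjusted p at most 0.00165). Zfp629 rose from 9.49 to 15.2 RPKM by the authors' deposited table (log2 fold change 0.68, Cuffdiff adjusted p at most 3.92e-05). Zfp811, a KRAB gene on chromosome 17, rose from 1.75 to 2.90 RPKM by the authors' deposited table (log2 fold change 0.72, Cuffdiff adjusted p at most 0.0296). Zfp677 stood at 0.176 and 0.307 RPKM by the authors' deposited table, with a Cuffdiff p of 0.0277 and an adjusted bound of 0.677, so its change is not called here.

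Among the falls Zfp473 had the largest, from 0.316 to 0.143 RPKM by the authors' deposited table, a log2 fold change of -1.15 (SE 0.343, Cuffdiff p = 0.000829, adjusted p at most 0.0271). Its product, known as ZFP100 in human cells, is a partner of the U7 small nuclear ribonucleoprotein in forming the 3′ ends of replication-dependent histone mRNAs, and it was the one fall of at least 1 on the log2 scale. The next largest were Zfp472 and Zfp239. Zfp472, or Krim-1, a KRAB protein that binds Myc, fell from 4.57 to 2.74 RPKM by the authors' deposited table (log2 fold change -0.74, Cuffdiff adjusted p at most 0.00497). Zfp239, or Mok2, which binds both DNA and RNA, fell from 3.35 to 2.04 RPKM by the authors' deposited table (log2 fold change -0.72, Cuffdiff adjusted p at most 0.0481).

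The other falls called lay between -0.69 and -0.60. Zfp101 went from 5.33 to 3.29 RPKM by the authors' deposited table (log2 fold change -0.69, Cuffdiff adjusted p at most 0.00382). Zfp280b, known as Suhw2, went from 3.72 to 2.30 RPKM by the authors' deposited table (log2 fold change -0.69, Cuffdiff adjusted p at most 0.00171). Zfp808 went from 2.97 to 1.86 RPKM by the authors' deposited table (log2 fold change -0.67, Cuffdiff adjusted p at most 0.0377). Zfp180 was the most abundant of the genes that fell, from 9.95 to 6.56 RPKM by the authors' deposited table (log2 fold change -0.60, Cuffdiff adjusted p at most 0.00252). Zfp773 stood at 0.885 and 0.576 RPKM by the authors' deposited table, with a Cuffdiff p of 0.0205 and an adjusted bound of 0.514. Zfp180, Zfp385a and Zfp773 lay nearest to the 1.5-fold change that the listing required.

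All of these genes were expressed at low to moderate levels. In ethanol the 15 genes ranged from 0.176 to 11.6 RPKM by the authors' deposited table and 0 of them exceeded 20 RPKM, a level that 413 of the 2416 listed genes (17.1%) exceeded in ethanol. Among listed genes the share that was higher fell with level, from 80.6% of the 674 genes under 1 RPKM in their higher arm to 63.2% of 574 between 1 and 5 RPKM and 39.5% of 1168 at 5 RPKM or more. The Zfp genes in the same bands were higher in 2 of 4, 3 of 7 and 2 of 4 cases. Over the level range that the Zfp genes span, 59.6% of 1585 listed genes were higher, with a median size of change of 0.859. No test was made of whether the family differs from other genes of its level.

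**Figure D2:**
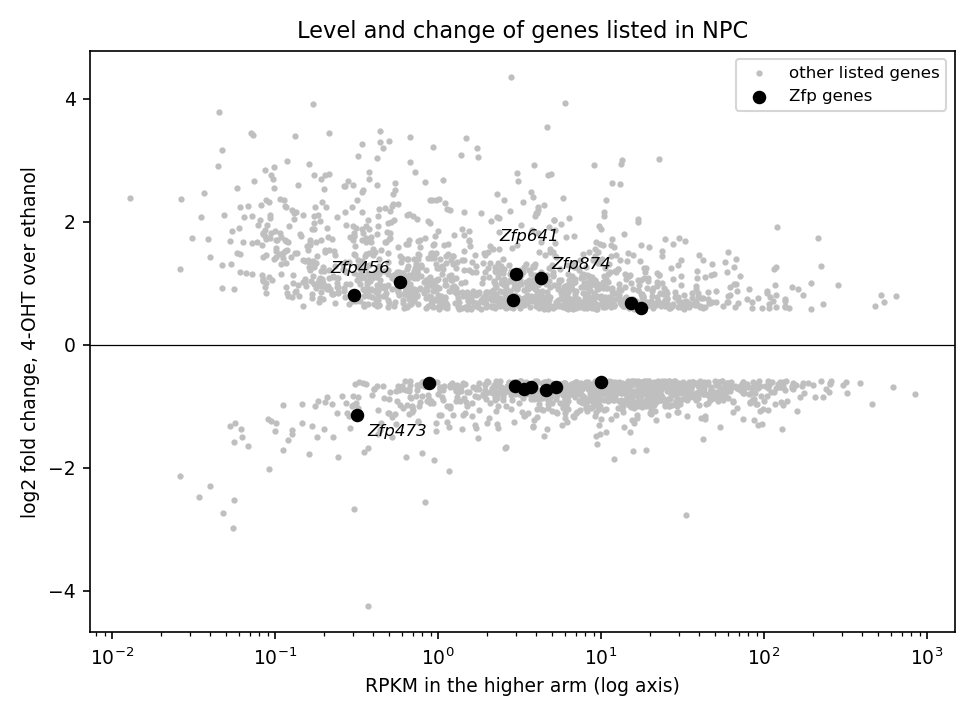
Log2 fold change of 4-OHT over ethanol against the RPKM of the higher arm (log axis) for genes listed in NPC, from the authors' deposited table. Of the 2416 listed genes, 10 with 0 RPKM in ethanol are not drawn. The 15 Zfp genes (black) lie at 17.7 RPKM or less and within 1.15 of 0, and 4 of them are named because their change reached a size of 1.

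The genes were checked for what they share beyond their name. Using the longest coding transcript of each in GENCODE M21 (GRCm38), C2H2 finger patterns numbered 3 in Zfp385a to 22 in Zfp808. The median count was 10 in the genes that were higher and 12 in those that were lower, and it was 11 over the 391 annotated Zfp genes. KRAB box letters were found in Zfp641, Zfp456, Zfp677 and Zfp811 among the 7 higher genes and in Zfp808 among the 8 lower genes. Over all annotated Zfp genes 41.7% had them. The letters searched are strict and miss some KRAB boxes, among them that of Zfp472, so their absence says only that those letters were not found.

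**Figure D3:**
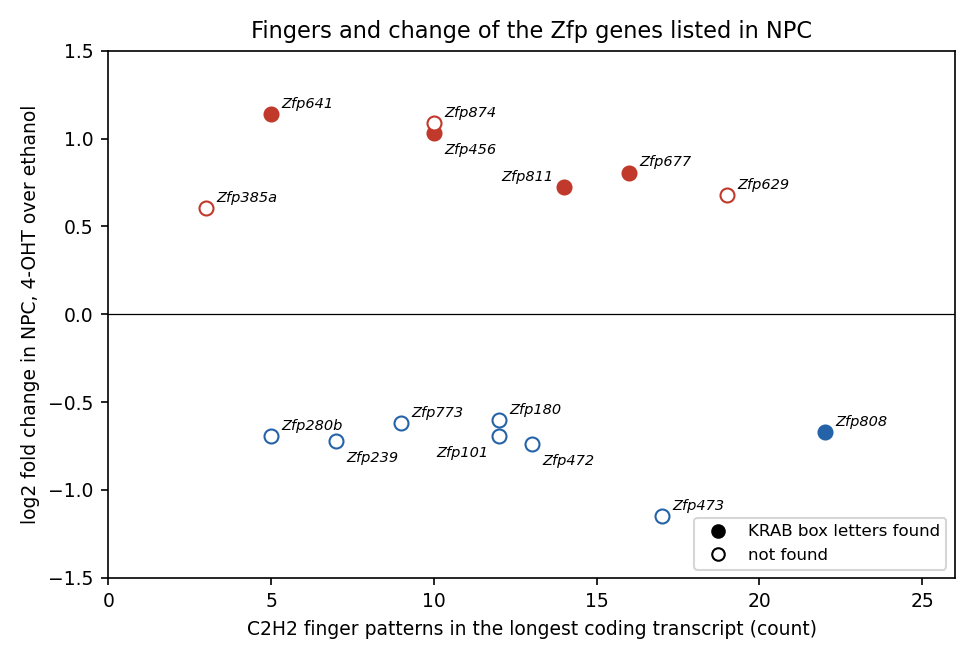
Log2 fold change in NPC (4-OHT over ethanol) against the number of C2H2 finger patterns in the longest coding transcript for the 15 listed Zfp genes, filled where KRAB box letters were found. Genes with 5 fingers (Zfp641 and Zfp280b) and with 16 or more (Zfp677, Zfp629, Zfp473 and Zfp808) stand on both sides of 0.

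Of the 2 pairs of listed Zfp genes with the fewest protein-coding genes between them, 1 rose and 1 split. Zfp456 and Zfp874 lie on chromosome 13 with 2 protein-coding genes between them and rose by 1.03 and 1.09 on the log2 scale. In that stretch 8 of the 10 nearest protein-coding genes of each are Zfp genes. Over the 391 annotated Zfp genes the median was 2 of 10, and 103 had 5 or more. Zfp472 and Zfp811 lie on chromosome 17 with 4 protein-coding genes between them and changed by -0.74 and 0.72. The next nearest pair, Zfp101 and Zfp472 with 12 such genes between them, both fell (-0.69 and -0.74). Zfp101 and Zfp811, with 17 between them, split (-0.69 and 0.72). The remaining genes listed in NPC lie on chromosomes 6, 7, 10, 13, 15 and 17. Reads from close relatives may be split or shared in the authors' counting. Of the 50-base stretches of Zfp808, 43.1% also occur in some other gene, so its fall is uncertain as to the gene. The same holds for 16.5% of those of Zfp456 and 16.3% of those of Zfp874. Counted over transcripts, the most frequent sharer was Zfp934 for Zfp808, Zfp429 for Zfp456 and a copy called Zfp874b for Zfp874. The share held with each of these alone was not computed. Zfp456 and Zfp874 share 0 such stretches with each other. The other 12 genes had 2.85% or less. The library kit does not mark strand, so reads from an overlapping gene on the opposite strand cannot be told apart.

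Because Zfp456 and Zfp874 rose together, their promoters are shown, with in capitals the longest run of bases that they share. Each is the 200 bases before the RefSeq start, on the minus strand of GRCm38.p6, at chr13:67375764-67375963 for Zfp456 and chr13:67451625-67451824 for Zfp874, matched through its current name Zfp874a.
Zfp456 promoter: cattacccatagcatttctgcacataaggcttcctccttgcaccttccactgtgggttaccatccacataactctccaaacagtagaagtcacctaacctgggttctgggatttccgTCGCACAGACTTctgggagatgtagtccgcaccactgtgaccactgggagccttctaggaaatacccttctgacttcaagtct
Zfp874a promoter: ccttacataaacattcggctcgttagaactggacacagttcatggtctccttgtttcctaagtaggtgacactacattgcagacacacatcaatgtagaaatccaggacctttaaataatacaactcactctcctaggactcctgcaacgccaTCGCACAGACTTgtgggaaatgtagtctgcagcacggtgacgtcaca
Aligned end to end, the windows were the same in 125 of 245 columns (51%), and those of the split pair Zfp472 and Zfp811 in 126 of 227 (55.5%). The 12-base run TCGCACAGACTT, searched on both strands, was chosen because this pair shares it. It occurs in 11 of 32851 RefSeq promoter windows (0.0335%) and in 6 of the 404 windows of Zfp genes (1.49%). These 6 belong to Zfp456, Zfp874a, Zfp874b, Zfp429, Zfp58 and Zfp748, and include the pair from which the run was taken. The others of the 6 are among the 10 nearest protein-coding genes of Zfp456 or Zfp874, so all come from the same stretch of chromosome 13. Windows outside Zfp genes belong to Rsl1, Med16, 9430065F17Rik and F630042J09Rik. Of the 6, Zfp456 and Zfp874 are the ones with a listed change.

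In MEF, 0 of the 111 genes listed for expression were Zfp genes. With 0.470% of protein-coding gene names listed in MEF, the table was short for every family. A gene absent from it was untested, had a higher p or changed less, so no level of any Zfp gene in MEF is known from it. Whether the change of any Zfp gene differs between NPC and MEF was not tested.

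Genes through which KRAB proteins act, and close relatives of these, were listed for expression in NPC only as lower. Of the 42 partner genes examined, 8 were listed in NPC and all 8 were lower with 4-OHT, against 43.4% of all listed genes, and 6 of the 8 had a Cuffdiff adjusted bound under 0.05. Of the 8, 6 had at least 5 RPKM, a level at which 707 of the 1168 listed genes were lower. As given above, 9.77% of coding gene names were listed. The partner list was chosen with earlier results of these data known, so its counts are a description only. Trim28, the corepressor that KRAB boxes bind, fell from 136 to 90.3 RPKM by the authors' deposited table (log2 fold change -0.59, Cuffdiff adjusted p at most 0.00272). Uhrf1, which brings the maintenance DNA methyltransferase to replicated DNA, fell from 68.1 to 33.3 RPKM by the authors' deposited table (log2 fold change -1.03). Dnmt1, that methyltransferase, fell from 71.0 to 44.8 RPKM by the authors' deposited table (log2 fold change -0.66). Hells, Sumo2 and Suv39h2 were the other partners called. In MEF 0 partner genes were listed. The intron retained in Setdb1 in NPC rose from an inclusion level of 0.203 ± 0.026 to 0.514 ± 0.0136 (SD, n = 3) in the authors' deposited table, with no overlap between libraries. That event is listed for its difference in each of the 3 pairs, so its separation is a description and has no test. Of all retained introns listed in NPC, 96.3% had higher inclusion. The partner Trim24 was also listed in NPC, for an alternative 5′ splice site. Its inclusion level was 0.36 ± 0.0226 with ethanol and 0.568 ± 0.0212 with 4-OHT (SD, n = 2) in the authors' deposited table.

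Cell type markers moved in NPC as well. All 6 astrocyte and oligodendrocyte markers examined were listed as higher, with none at 0 in either arm, and their summed level in the authors' deposited table was 74.3 RPKM with ethanol and 140 with 4-OHT. Most of that sum was Aldh1l1, at 67.7 and 118 RPKM by the authors' deposited table. The progenitor marker Hes5 was lower, 4.77 with 4-OHT against 15.8 RPKM with ethanol by the authors' deposited table, and was the only 1 of 7 progenitor markers listed. Listed as higher were 1 of 5 neuron, 1 of 4 blood and 2 of 4 vessel markers, and 0 of 5 fibroblast markers were listed. These counts stand beside 9.77% of coding gene names listed and 56.6% of listed genes higher. The marker lists were chosen with earlier results of these data known, so the counts are a description only. The Cuffdiff adjusted bound was over 0.05 for the blood marker Cd14 (0.0632) and the vessel markers Flt1 (0.627) and Tek (0.96). The part of a changed cell makeup in the Zfp values was not tested.

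Splicing events were listed for 4 Zfp genes in NPC, namely retained introns in Zfp672 and Zfp523 and skipped exons in Zfp280c and Zfp740. The Zfp740 exon was also listed in MEF. Inclusion rose in 3 of the 4 NPC events, beside 62.0% of the 255 events listed in NPC. Both retained introns were included more, beside 96.3% of listed retained introns, and the skipped exons split, beside 37.8% of listed skipped exons included more. Events were listed in 1.02% of annotated Zfp gene names and in 0.926% of all protein-coding names in NPC, and in 0.256% and 0.228% in MEF. The inclusion level is the share of transcripts with the intron or exon, computed by the authors from reads for each form after correction for length.

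The events rest on 2 of the 3 library pairs each, because the remaining pair is not listed. Pairs enter the tables through their difference, which biases a mean over them away from 0. The same listing favours groups that do not overlap. Such separation, where given below, describes the listed pairs only and has no test. The exact permutation test of 2 against 2 libraries cannot give a two-sided p under 0.333, so the p-values of MATS for each pair are given as deposited and unadjusted. Intervals are 95% exact binomial intervals from the reads of each library, carried through the length correction, and cover counting error only.

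The largest difference was the intron of Zfp672, on the minus strand at chr11:58133093-58133368 (mm9, 276 nt). With ethanol its inclusion level was 0.339 in one library (34 inclusion and 8 exclusion reads, interval 0.189 to 0.562) and 0.446 in the other (20 and 3 reads, interval 0.193 to 0.809), in the authors' deposited table. With 4-OHT it was 1 in both, from 54 and 45 inclusion reads and 0 exclusion reads, with lower bounds of 0.631 and 0.586. The groups do not overlap, but the intervals of the second ethanol library and of both 4-OHT libraries do. The mean difference was 0.608 (SD 0.0757 over 2 pairs), with MATS p = 0.00154 and 0.0444 by pair in the authors' deposited table. The intron lies in the 5′ untranslated region of the transcript that its lengths match and upstream of the start codon in 5 of 6 coding transcripts.

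The intron of Zfp523 lies between exons that encode its zinc fingers. Zfp523 is the mouse counterpart of ZNF76, a relative of ZNF143, which activates small nuclear RNA genes. The intron spans chr17:28338386-28339059 on the plus strand (mm9, 674 nt, 59.8% G and C), between exons of 180 and 234 nt, and falls within the coding sequence in 7 of 10 coding transcripts. In the longest coding transcript it interrupts the linker between neighbouring fingers, with 5 finger patterns before it and 2 after. Its ends are shown because reading on from the exon meets a stop codon 18 bases into the intron. In the first line the capitals mark the GT of the splice site and that in-frame TGA, and in the second the AG at the intron's end. They come from a GENCODE M21 transcript that keeps the intron, at chr17:28201421-28201480 and chr17:28202035-28202134 on the plus strand of GRCm38.
Zfp523 intron start: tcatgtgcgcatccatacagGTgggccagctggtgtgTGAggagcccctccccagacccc
Zfp523 intron end: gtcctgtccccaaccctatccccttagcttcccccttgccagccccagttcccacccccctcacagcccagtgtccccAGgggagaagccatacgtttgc
Its inclusion level with ethanol was 0.278 in one library (223 inclusion and 30 exclusion reads, interval 0.208 to 0.369) and 0.271 in the other (122 and 17 reads, interval 0.182 to 0.397), in the authors' deposited table. With 4-OHT it was 0.525 (342 and 16 reads, interval 0.402 to 0.662) and 0.66 (263 and 7 reads, interval 0.482 to 0.83). Neither the levels nor the intervals overlap between the groups, and this event had the most reads of the 4. The mean difference was 0.318 (SD 0.1 over 2 pairs), with MATS p = 0.00763 and 0.00109 by pair in the authors' deposited table.

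The 85-nt exon of Zfp280c, also called Suhw3, lies at chrX:45946691-45946775 on the minus strand (mm9) and was included more. In the authors' deposited table its level with ethanol was 0.428 (20 inclusion and 9 exclusion reads, interval 0.246 to 0.651) and 0.447 (12 and 5 reads, interval 0.21 to 0.745). With 4-OHT it was 1 (29 and 0 reads, lower bound 0.713) and 0.926 (37 and 1 reads, interval 0.678 to 0.998). The groups do not overlap, though the intervals of the second ethanol library and both 4-OHT libraries do, and the reads are few. The mean difference was 0.525 (SD 0.0658 over 2 pairs), with MATS p = 0.00162 and 0.0173 by pair in the authors' deposited table. The exon matched 2 non-coding transcripts of the gene and lies upstream of the start codon in 4 of 4 coding transcripts. Zfp280c was not listed for its mRNA level, whereas its relative Zfp280b was listed as lower.

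Zfp740 was the one Zfp gene listed in both cell types, with its 77-nt exon at chr15:102035660-102035736 on the plus strand (mm9) included less in each. In NPC the level with ethanol was 0.478 (68 inclusion and 27 exclusion reads, interval 0.367 to 0.598) and 0.554 (65 and 19 reads, interval 0.424 to 0.687) in the authors' deposited table. With 4-OHT it was 0.242 (50 and 57 reads, interval 0.176 to 0.322) and 0.216 (28 and 37 reads, interval 0.14 to 0.316). Neither levels nor intervals overlap, and the mean difference was -0.287 (SD 0.0721 over 2 pairs, MATS p = 0.00505 and 0.000269 in the authors' deposited table).

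In MEF the Zfp740 level with ethanol was 0.701 (58 and 9 reads, interval 0.536 to 0.843) and 1 (17 and 0 reads, lower bound 0.6) in the authors' deposited table. With 4-OHT it was 0.402 (24 and 13 reads, interval 0.247 to 0.59) and 0.321 (13 and 10 reads, interval 0.161 to 0.546). The levels do not overlap between the groups, while the interval of the first ethanol library overlaps those of both 4-OHT libraries. The mean difference was -0.489 (SD 0.269 over 2 pairs, MATS p = 0.0378 and 0.00211 in the authors' deposited table), and it came to -0.299 in the one pair and -0.679 in the other, which holds the ethanol library of 17 reads. Whether the difference is larger in MEF than in NPC was not tested. Of the 71 events listed in MEF 50.7% had higher inclusion, and of the 32 skipped exons 21.9%. The exon lies in the 5′ untranslated region of the 4 coding transcripts that its lengths match and upstream of the start codon in 6 of 8.

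**Figure D4:**
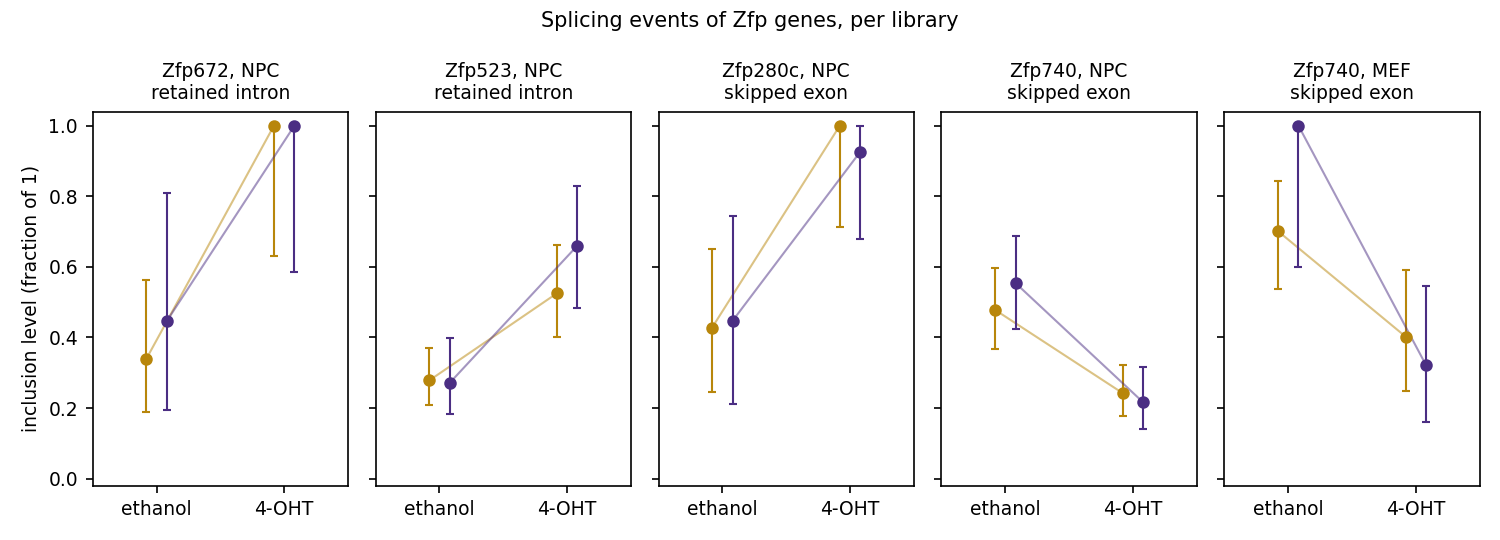
Inclusion level (fraction) of the Zfp splicing events in each listed library with ethanol and 4-OHT, from the authors' deposited table, with lines joining libraries of the same pair and bars for 95% exact binomial intervals from the reads. The introns of Zfp672 and Zfp523 and the exon of Zfp280c lie higher with 4-OHT in both pairs, and the Zfp740 exon lies lower in both pairs of NPC and of MEF.

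By size of the mean difference the Zfp events lay within the range of those listed. Zfp672, Zfp280c, Zfp523 and Zfp740 ranked 38, 56, 133 and 171 of 255 in NPC, where the median size over all events was 0.324, and Zfp740 ranked 29 of 71 in MEF, where it was 0.44. Most events of both tables were likewise listed in 2 pairs, 76.9% in NPC and 87.3% in MEF. Of the 4 Zfp events, 3 lie upstream of the start codon in most coding transcripts, and the Zfp523 intron lies within the coding span in most. The Zfp740 exon lies within the coding span in 2 of 8. Of the 222 genes with an event in NPC, 31 (14%) were also listed for expression, and the 4 Zfp genes were not among them.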

How the data were processed

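Total RNA was sequenced with TruSeq v2 libraries on a HiSeq 2000, per the labels. CASAVA 1.8, TopHat2 2.03, Bowtie2 2.0.0.6, Cuffdiff 2.02 and build mm9 are named in the submitters' processing notes, and MATS, of unstated version, made the splicing tables, going by the names the authors gave them. The expression tables hold 1 RPKM value per arm, the log2 fold change and an unadjusted p-value, as the authors deposited them. The splicing tables hold the count of reads for each form per library, the inclusion level as a fraction, its difference (a score from -1 to 1, turned here to 4-OHT minus ethanol) and a p-value, as the authors deposited them. In the files every gene has p under 0.05 and over 1.5-fold change, and every event p under 0.05 and a difference over 0.2 in 2 or 3 pairs. No library totals were used, so the depth of the RPKM values is unknown. The median event had 89 (ethanol) and 96 (4-OHT) reads per library in NPC, and in MEF 72 and 78.

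From these, the Benjamini-Hochberg adjusted p was bounded from above, counting as tested 55450 genes of GENCODE M21, and a standard error was derived from each p under a normal distribution. The bound and the inclusion intervals were tested on simulated data, the standard error was not. Python 3.11.15, pandas 2.3.3 and SciPy 1.17.1 were used. Pair codes in the splicing tables match no label. For events listed in 3 pairs, deviations of libraries with the same code had correlations of 0.177, 0.16 and 0.123 over 57 NPC events. Over 8 MEF events they were 0.232, 0.665 and 0.252. Listing for a difference favours such values, and whether they differ from 0 was not tested. Events were matched to GENCODE (GRCm38) within a gene by exon and intron lengths, never by position, and promoters came from RefSeq (GRCm38.p6), where 18 Zfp genes matched by symbol and 1 by an older name. C2H2 patterns were cysteines 2 to 4 residues apart and histidines 3 to 5 apart with 12 residues between. The members and lists were chosen with earlier results of these data known. Named genes were those with an event, the 10 largest changes each way at 1 RPKM or more, the 5 most abundant and the 3 nearest the fold limit. Zfp473, Zfp456 and Zfp677 fall outside that rule and were named after their values were seen. Alternatives tried were pseudocounts, level, fold, read and inclusion limits, leaving out pairs, and the replicate block.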

Additional observations from a re-analysis of the deposited data

How the results depend on the processing

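The share of NPC Zfp genes that were higher was 75% among the 4 with a log2 change of at least 1 (all listed genes 79%), and 45.5% to 50% under the other limits tried. With a pseudocount of 1 RPKM the median log2 fold change of the 15 was -0.204 and that of all listed genes 0.131, which pulls low genes toward 0 by construction. With a limit of 0.3 on the inclusion difference, 2 of the 4 NPC events remained and 0 in MEF, and with at least 20 reads in each library 0 remained in MEF. Leaving out each pair in turn gave differences of 0.247 to 0.389 for Zfp523, 0.479 to 0.572 for Zfp280c, 0.554 to 0.661 for Zfp672, and for Zfp740 -0.338 to -0.236 in NPC and -0.679 to -0.299 in MEF, each from 1 pair with no test. With the replicate block, taking differences within pairs, the mean differences were the same, for example 0.318 for Zfp523, and the exact sign-flip test over 2 pairs cannot go under p = 0.5. No alternative gave a value for MEF expression, where no Zfp gene was listed. Among single libraries the widest intervals were 0.193 to 0.809 for Zfp672 and 0.21 to 0.745 for Zfp280c, both with ethanol.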

Other observations

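Other C2H2 zinc finger families, counted by symbol, were listed in NPC with 15 genes, of which 11 were higher with 4-OHT and 4 lower, and with 0 in MEF. Of all genes listed in NPC 56.6% were higher, and 9.77% of coding gene names were listed. Of the 15, 10 reached 1 RPKM in their higher arm, and all 4 lower genes were among these 10. At that level 47.3% of 1742 listed genes were higher. Those under 1 RPKM were Sp6, Sp9, Zfhx3, Zbtb8b and Egr3, all higher, beside 80.6% of the 674 listed genes under it. Zbtb7b, a transcription factor of the BTB family, rose from 3.37 to 6.76 RPKM by the authors' deposited table (log2 fold change 1.00), while Zbtb12 fell from 20.4 to 10.9 RPKM (log2 fold change -0.91). Klf4, known from pluripotency and epithelial cells, rose from 0.452 to 1.23 RPKM by the authors' deposited table (log2 fold change 1.44), and Klf9 rose from 5.42 to 8.45 RPKM (log2 fold change 0.64). Gli3, a mediator of Hedgehog signalling, fell from 3.38 to 2.16 RPKM by the authors' deposited table (log2 fold change -0.64). The Cuffdiff adjusted bound of each of these 5 was under 0.05, and whether these families differ from the Zfp genes in direction was not tested.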
